A study of Mus musculus with 141 samples.

Results

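The genes described are the 7 that make, carry and turn over creatine in adipose tissue: *Gatm*, *Gamt*, *Slc6a8*, *Ckb*, *Ckmt1*, *Alpl* and *Phospho1*. They were taken by name, whatever their values, from the 36558 genes of a pair of tables of inguinal white adipose tissue (iWAT) RNA-seq, 1 of estimated counts and 1 of TPM (transcripts per 1000000 transcripts, a level corrected for transcript length). The mice belong to the HMDP (Hybrid Mouse Diversity Panel), in which classical inbred strains stand beside recombinant inbred families bred from pairs of them. The female group holds 67 libraries and the male group 74, from 82 strains with at most 1 library per sex and strain, and 59 strains have both. Mice of either sex ate chow until 8 weeks of age and a high-fat, high-sucrose diet for the following 8 weeks, and were fasted for 4 h before the tissue was taken. No other treatment and no engineered allele separates the groups, although some strains carry spontaneous mutations that their names give, such as BXD24/TyJ-Cep290<rd16>/J. The families, read from the strain names, are BXD (32 female and 34 male libraries), AXB and BXA (9 and 11), BXH (2 and 3), CXB (3 and 3) and the classical inbred strains (21 and 23). Whether a library holds RNA of 1 mouse is not stated in the labels, and with 1 library per sex and strain, a strain difference within a sex cannot be told apart from a difference between single libraries.

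Creatine is made in 2 steps. *Gatm* encodes the enzyme that joins arginine and glycine to guanidinoacetate, and *Gamt* encodes the methyltransferase that turns this into creatine, while *Slc6a8* encodes the carrier that brings creatine in from the blood. Creatine kinases, among them *Ckb* and the mitochondrial *Ckmt1*, move phosphate from ATP to creatine, and in thermogenic fat the tissue-nonspecific alkaline phosphatase of *Alpl* and the phosphatase of *Phospho1* have been described as releasing that phosphate again, so that ATP is spent and heat is set free. *Alpl* and *Phospho1* are otherwise best known for the mineralisation of bone.

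Promoter sequences are shown for *Gamt* and *Ckb*, whose levels rose and fell together in both sexes, and for *Phospho1*, which followed the markers of brown and beige fat. RefSeq windows of GRCm38.p6 were found for 6 of the 7 genes, all but *Slc6a8*. The 250 bases before the start of transcription are printed 5′ to 3′ on the strand of the gene. They lie at chr10:80261013-80261262 (minus strand) for *Gamt*, chr12:111672339-111672588 (minus strand) for *Ckb* and chr11:95824250-95824499 (plus strand) for *Phospho1*. Capitals mark matches, on either strand, to the TATA box (TATAAA), the CCAAT box (CCAAT), the GC box (GGGCGG) and the E box (CACGTG).
Gamt: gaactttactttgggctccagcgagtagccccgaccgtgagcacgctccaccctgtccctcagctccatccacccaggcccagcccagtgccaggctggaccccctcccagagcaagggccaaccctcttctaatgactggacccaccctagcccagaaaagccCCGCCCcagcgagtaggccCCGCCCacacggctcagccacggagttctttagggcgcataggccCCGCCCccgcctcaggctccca
Ckb: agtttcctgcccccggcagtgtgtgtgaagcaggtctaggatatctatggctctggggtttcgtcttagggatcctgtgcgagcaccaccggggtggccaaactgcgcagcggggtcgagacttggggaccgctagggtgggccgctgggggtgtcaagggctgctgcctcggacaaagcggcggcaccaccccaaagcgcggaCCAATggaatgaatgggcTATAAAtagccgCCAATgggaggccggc
Phospho1: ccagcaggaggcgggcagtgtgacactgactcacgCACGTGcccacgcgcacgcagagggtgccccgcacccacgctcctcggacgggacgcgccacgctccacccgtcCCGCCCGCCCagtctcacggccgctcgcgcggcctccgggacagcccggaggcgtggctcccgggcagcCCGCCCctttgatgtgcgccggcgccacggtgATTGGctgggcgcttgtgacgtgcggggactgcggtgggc
The *Ckb* window held TATAAA with its first base 28 bases before the start and CCAAT at 46 and 16 bases. The *Gamt* window held neither, and had GGGCGG on the reverse strand at 86, 67 and 22 bases before the start. The *Phospho1* window held GGGCGG on the reverse strand at 72 bases and in a pair of overlapping matches farther upstream, CCAAT on the reverse strand at 40 and CACGTG at 215 bases. Of 32851 promoter windows of the same length, 12.4% held the TATA box, 33.8% the CCAAT box, 32.7% the GC box and 6.02% the E box. The cAMP response element TGACGTCA (1.55% of windows), the ERR element TCAAGGTCA (0.387%) and the direct repeat DR1 (0.0335%) matched none of the windows of the 6 genes. GC content was 66.8% in *Gamt*, 62.8% in *Ckb* and 75.6% in *Phospho1*, against a median of 52.4% over all windows. The CpG count was 12, 16 and 34 in that order, against a median of 6. These matches describe letters and not binding.

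The shallowest library held 6269154 estimated counts, the deepest 78562648 and the median one 30233245, at which 3 counts, the floor used here for detection, correspond to 0.0992 CPM (counts per 1000000). The sex labels were checked with 4 Y-linked genes, and 3 libraries went against them: BXD34/TyJ and BXD69/RwwJ, both labelled female, had 1430 and 368 CPM, and NZW/LacJ, labelled male, had 8.16 CPM, compared with 5.58 to 34.1 CPM in the other 65 female and 185 to 539 CPM in the other 73 male libraries. The library labelled female of BXD34/TyJ was also the shallowest, with 29.9% of its counts on mitochondrial genes. The 5 adipocyte markers (*Adipoq*, *Plin1*, *Plin4*, *Cidec*, *Fabp4*) were detected in most libraries of both sexes and summed to a median of 31260 TPM in females and 41390 TPM in males. In the 59 matched strains all 5 were higher in males (median log2FC, female vs. male, -0.61), as were the 4 macrophage (-0.57) and the 4 endothelial (-0.33) markers. All 9 epithelial markers (*Cldn3*, *Cldn7*, *Csn3*, *Epcam*, *Wfdc18* and the keratins *Krt5*, *Krt8*, *Krt14*, *Krt18*) were higher in females (6.90), where they summed to 1.70 to 4572 TPM, against 0.380 to 554.4 TPM in males, in most of which *Krt14* and *Krt5* were at 0. Their summed medians were 581.6 TPM in females and 3.33 TPM in males, and the highest male sum was that of NZW/LacJ.

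One row of the files limits what can be said of *Gatm*. The gene ENSMUSG00000111138, which has no symbol or position in the annotation used here, holds the same TPM and the same counts as *Gatm* in every library. Values equal to those of another row are found in 475 of the 20837 rows that are above 0 in at least 50% of the libraries. How the reads were shared between both rows was not tested, and the sum over both rows had a median of 13.2 TPM in females and 15.9 TPM in males. *Phospho1* lies wholly inside the span annotated for *Zfp652* on the same strand and shares 2067 bases with *Abi3* on the other strand, so reads could be split with them, and *Ckmt1* shares 10 bases with *Strc*.

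The level of each gene was first compared across libraries. In females *Ckb* was highest with a median of 19.3 TPM, followed by *Gamt* (14.8), *Phospho1* (13.96), *Slc6a8* (11.1), *Alpl* (10.07), *Gatm* (6.62) and *Ckmt1* (3.51). In males the order was *Gamt* (median 22.8 TPM), *Ckb* (21.5), *Phospho1* (13.6), *Slc6a8* (9.39), *Gatm* (7.95), *Alpl* (4.94) and *Ckmt1* (0.151). The interquartile ranges of neighbours in these orders overlapped, except that those of *Alpl* (3.55 to 7.25 TPM) and *Ckmt1* (0.0513 to 0.390 TPM) in males did not. Every member but *Ckmt1* was above the floor of 3 counts in every library.

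The spread between libraries differed between the genes. The SD of log2 CPM was 1.25 in females and 1.52 in males for *Ckmt1*, and 1.20 and 0.88 for *Phospho1*. For *Gamt* it was 0.96 and 0.62. The other 4 genes lay between 0.45 and 0.72 in either sex, and the median over the 16862 genes tested was 0.50 in females and 0.42 in males.

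**Figure D1:**
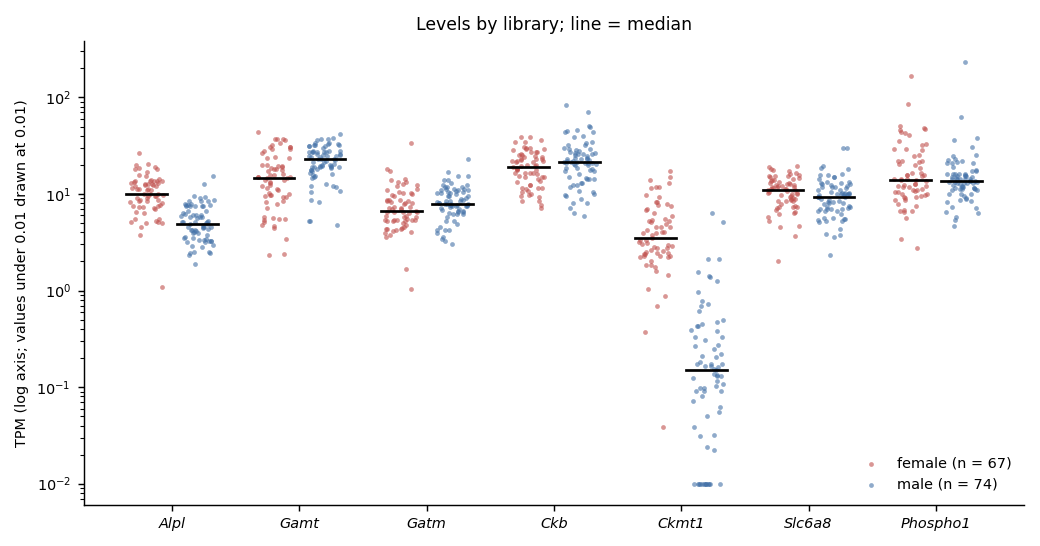
Level of each gene in TPM on a log axis, 1 point per library (67 female, 74 male), with the median as a line and values under 0.01 TPM drawn at 0.01. *Ckmt1* has medians of 3.51 TPM in females and 0.151 TPM in males, and *Phospho1* has single libraries at 165.9 and 233.8 TPM above medians of 13.96 and 13.6 TPM.

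*Ckmt1* was the gene that differed most between the sexes. In females it had a lowest level of 0.0386 TPM in BXD69/RwwJ, a median of 3.51 TPM and a highest level of 17.1 TPM in KK/HlJ. In males it was listed at 0 in 13 libraries and had a median of 0.151 TPM and a highest level of 6.32 TPM in NZW/LacJ, and 41 of the 74 libraries held 3 counts or fewer. Both the lowest female and the highest male library are among those against their labels. Without these 3 libraries the female range was 0.369 to 17.1 TPM and the male range 0 to 5.14 TPM, so that the groups still overlapped, with 22 of 65 females above every male and 54 of 73 males below every female. Sex was tested within strains in the model ~ Strain + Sex, in which 58.1% of 16765 genes were called at an adjusted p under 0.05, and 5 of the 7 members were called. *Ckmt1* had a log2FC of 4.55 (SE 0.31, female vs. male; edgeR, adjusted p = 9.11e-20), and in 57 of 59 strains the female library was the higher one. Since many males were at or under the floor, this value depends on the prior count and is no bound, and it was 3.35 with no replicate block, that is with strain left out of the model. The 2 exceptions were NZW/LacJ (4.60 TPM in the female, 6.32 TPM in the male) and AXB5/PgnJ (3.16 and 5.14 TPM). In the summed level of the epithelial markers the NZW/LacJ male ranked first of 74 (554.4 TPM) and the AXB5/PgnJ male sixth (36.3 TPM), against a male median of 3.33 TPM. The PL/J male ranked 2 (285.5 TPM) with 1.41 TPM of *Ckmt1*. Within both exceptions the mean log2 CPM of these markers was higher in the female, opposite to *Ckmt1*. It was 5.35 in the female and 5.11 in the male of NZW/LacJ, and 4.58 and 0.95 in AXB5/PgnJ. With the epithelial score, the mean log2 CPM of the 9 markers, as a covariate, the log2FC of *Ckmt1* was -0.64 and was not called (edgeR, adjusted p = 1). In that fit 0.0477% of all genes were called, and no member was (edgeR, 0 of 7 also at an unadjusted p under 0.05). The median score was 5.05 in females and -2.365 in males, so that sex and score largely coincide and this fit cannot tell them apart. In whole tissue, fewer cells of a type and less RNA per cell cannot be told apart.

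*Slc6a8* and *Phospho1* were not called for sex. *Slc6a8* had 2.01, 11.1 and 19.4 TPM (lowest, median and highest) in females and 2.32, 9.39 and 29.7 TPM in males. The ranges overlapped, with the highest levels in males, and the log2FC was 0.09 (SE 0.087; edgeR, adjusted p = 0.376) with the female higher in 33 of 59 strains. Scaled by library totals in place of TMM it was called as higher in females (0.20, adjusted p = 0.0326, edgeR), and likewise with the adipocyte score as a covariate (0.28, adjusted p = 0.0255). *Phospho1* had 2.77, 13.96 and 165.9 TPM in females and 4.66, 13.6 and 233.8 TPM in males, with a log2FC of 0.03 (SE 0.16; edgeR, adjusted p = 0.879). Its difference within a strain ran from -2.93 to 3.66 on the log2 scale, and its sign was split, with the female higher in 23 strains and the male in 36. For the other phosphatase, *Alpl*, the lowest, median and highest levels were 1.09, 10.07 and 26.8 TPM in females and 1.91, 4.94 and 15.3 TPM in males, and the female was higher in 55 of 59 strains (log2FC 1.02, SE 0.089). The lowest female level of each of these genes was that of BXD34/TyJ, which went against its label. Without the libraries against their labels it was 3.71 TPM for *Slc6a8*, 3.40 TPM for *Phospho1* and 3.72 TPM for *Alpl*. For *Alpl*, 20 of 73 males were then below every female and 10 of 65 females above every male.

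The synthesis genes and *Ckb* were higher in males by smaller amounts. *Gamt* had 2.33, 14.8 and 44.1 TPM (lowest, median, highest) in females and 4.79, 22.8 and 41.6 TPM in males, and the male was higher in 48 of 59 strains (log2FC -0.69, SE 0.13). *Gatm* had 1.05, 6.62 and 33.5 TPM in females and 3.03, 7.95 and 22.96 TPM in males (log2FC -0.23, SE 0.079; edgeR, adjusted p = 0.01), and the summed rows gave -0.23 as well. *Ckb* had 7.11, 19.3 and 38.9 TPM in females and 5.89, 21.5 and 82.5 TPM in males (log2FC -0.26, SE 0.089; edgeR, adjusted p = 0.00931). The ranges of the sexes overlapped for each of the 3 genes, and the highest *Ckb* levels were those of single males. The lowest female *Gatm* (BXD34/TyJ) and the highest female *Ckb* (BXD69/RwwJ) came from libraries against their labels. Without such libraries these levels were 1.69 and 38.5 TPM. Neither *Gatm* (-0.12) nor *Ckb* (-0.15) was called with library totals, and *Gatm* was not called with no replicate block (-0.18; edgeR, adjusted p = 0.159). With the adipocyte score as a covariate the log2FC was -0.01 for *Gamt*, -0.19 for *Gatm* and 0.04 for *Ckb*, none of them called.

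Whether a gene differed between strains was tested against the spread within strains, between the sexes. In this test 71.2% of 16765 genes were called, and 6 of the 7 members were. The lowest adjusted p was that of *Phospho1* (7.81e-07, edgeR), followed by *Gatm* (8.25e-05), *Ckb* (0.000112), *Ckmt1* (0.00244), *Gamt* (0.0315) and *Slc6a8* (0.0499), while *Alpl* had 0.0535. The last 2 lay on either side of the threshold and changed sides with the settings, and *Ckmt1* was not called on the TPM scales (adjusted p = 0.313 and 0.221, limma). As 1 library of each sex stands for a strain, the test holds where the sexes of a strain vary alike.

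Strains were ranked by the mean log2 CPM of both libraries, and those at the ends of the range are given first for *Phospho1*. In SJL/J it had 47.2 TPM in the female and 233.8 TPM in the male, and in MA/MyJ 165.9 TPM in the female and 36.3 TPM in the male. BXD14/TyJ followed with 85.4 TPM in the female and 14.3 TPM in the male. In these strains 1 of the 2 libraries carried most of the high value, and in the lowest strains both were low, as in BXD74/RwwJ with 7.59 and 6.48 TPM. The markers of brown and beige fat (*Ucp1*, *Cidea*, *Cox7a1*, *Cox8b*, *Elovl3*, *Dio2*) summed to 2345 TPM in the SJL/J male, the first of 74, and to 2726 TPM in the MA/MyJ female, the second of 67, against medians of 209.4 and 219.2 TPM. Adipocyte markers were low in the same libraries, at 18570 TPM in the SJL/J male and 13120 TPM in the MA/MyJ female, and the part of these markers in the strain result was not tested. Without MA/MyJ and SJL/J the strain test of *Phospho1* gave an adjusted p of 0.000871 (edgeR).

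For the synthesis genes the ends of the range were other strains. *Gatm* was highest in AXB12/PgnJ, with 33.5 TPM in the female and 11.07 TPM in the male, then in CE/J (14.3 and 22.96 TPM) and BXD84/RwwJ (12.5 and 17.01 TPM), and lowest in AXB19a/PgnJ (4.99 and 3.61 TPM). Without AXB12/PgnJ, whose female library ranked first of 67 in summed macrophage markers (399.1 TPM, median 112.1 TPM), the adjusted p of *Gatm* was 0.000167 (edgeR). *Gamt* was highest in BXD24/TyJ-Cep290<rd16>/J (36.9 and 31.9 TPM), BXA8/PgnJ (44.1 and 27.6 TPM) and CBA/J (36.7 and 31.2 TPM). It was lowest in SWR/J (3.43 and 5.20 TPM) and SJL/J (4.82 and 4.79 TPM), where both sexes were low.

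*Ckb* and *Slc6a8* were both high in CE/J, while the highest strains of *Ckmt1* were NZW/LacJ, AXB5/PgnJ and AXB13/PgnJ (7.94 and 2.14 TPM). *Ckb* was highest in CXB11/HiAJ (36.3 TPM in the female, 20.8 TPM in the male), CBA/J (34.6 and 50.6 TPM) and CE/J (26.1 and 71.4 TPM), and lowest in SJL/J (7.11 and 5.89 TPM). The highest single male library was KK/HlJ with 82.5 TPM. *Slc6a8* was highest in CE/J (18.96 and 29.6 TPM) and KK/HlJ (19.4 and 29.7 TPM) and lowest in CXB11/HiAJ (3.71 and 2.32 TPM), the strain in which *Ckb* was highest. The KK/HlJ and CE/J males ranked first and second in summed macrophage markers, at 576.7 and 542.9 TPM against a male median of 160.2 TPM. *Ckmt1* reached 17.1 TPM in the KK/HlJ female, which also ranked first in summed epithelial markers (4572 TPM), and was listed at 0 in the KK/HlJ male.

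The parents of the recombinant families lay within these ranges and did not rank alike for the different genes. C57BL/6J, a parent of BXD, BXH, AXB and BXA strains, had the highest *Gamt* of the males with 41.6 TPM, but ranked 15 of 59 strains because its female had 15.8 TPM. For *Phospho1* it ranked 40 with 11.4 and 13.4 TPM, while A/J ranked 7 with 48.02 and 22.9 TPM and DBA/2J 11 with 29.6 and 22.7 TPM. For *Alpl* DBA/2J ranked 4 (20.2 and 9.43 TPM) and C57BL/6J 31 (8.99 and 5.85 TPM). AXB13/PgnJ was the strain with most *Alpl*, at 26.8 and 9.15 TPM.

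Families were compared within each sex. In females 5.44% of 16862 genes differed between families and no member did (edgeR, 0 of 7 also at an unadjusted p under 0.05, lowest p = 0.0508, and 0 with limma-voom, which had 2 at an unadjusted p under 0.05). In males 10.2% of genes were called, and of the members *Phospho1* was (edgeR, adjusted p = 0.00236). Its male range was 4.66 to 21.8 TPM in the BXD strains (median 13.1 TPM, n = 34), 5.73 to 25.3 TPM in the AXB and BXA strains (median 15.99 TPM, n = 11) 9.96 to 12.4 TPM in the BXH and 8.24 to 17.3 TPM in the CXB strains (n = 3 each), and 5.43 to 233.8 TPM in the classical inbred strains (median 15.7 TPM, n = 23). The medians were close, and the call rested on single libraries: without the SJL/J male the adjusted p was 0.0786, and without that and the PL/J male (62.6 TPM) it was 0.187 (edgeR).

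Within each matched strain the sexes were then set against each other, to see how far a strain's level was shared by its sexes. Over the 59 matched strains, 52.3% of 16862 genes had a Pearson's r above 0 that passed (permutation test with 100000 resamples, adjusted over all genes), with a median r of 0.30 over all genes, and 4 of the 7 members passed. *Ckb* had r = 0.52 (permutation test, adjusted p = 0.000299; Spearman's rho = 0.52, adjusted p = 0.000279), and *Gatm* had r = 0.49 (adjusted p = 0.000766; rho = 0.49, adjusted p = 0.000881). *Phospho1* followed with 0.38 (adjusted p = 0.0127; rho = 0.43) and *Gamt* with 0.30 (adjusted p = 0.0419; rho = 0.39). For each gene the 2 strains whose female value lay farthest from the median were also left out, whatever the male value. Then r was 0.44 for *Ckb*, 0.54 for *Gatm*, 0.37 for *Phospho1* and 0.32 for *Gamt*. For *Phospho1* these strains were MA/MyJ and BXD14/TyJ, so the SJL/J male stayed in.

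The members that did not pass lay below the median gene. *Slc6a8* had r = 0.20 (permutation test, adjusted p = 0.176; rho = 0.18), *Alpl* had r = 0.18 (adjusted p = 0.211; rho = 0.17) and *Ckmt1* had r = 0.18 (adjusted p = 0.225; rho = 0.24). With the 2 strains of the farthest female values left out, r was 0.18, 0.13 and 0.18. On the TPM scale *Alpl* passed (r = 0.36 on log2(TPM + 1)). For *Ckmt1* the male values were near the floor in most strains. When the adipocyte and epithelial scores were taken out of each gene within a sex, the residuals of *Ckmt1* had r = 0.45 (permutation test, adjusted p = 0.00113), those of *Ckb* 0.62 and of *Gatm* 0.50, and *Gamt* no longer passed (0.27, adjusted p = 0.0545).

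**Figure D2:**
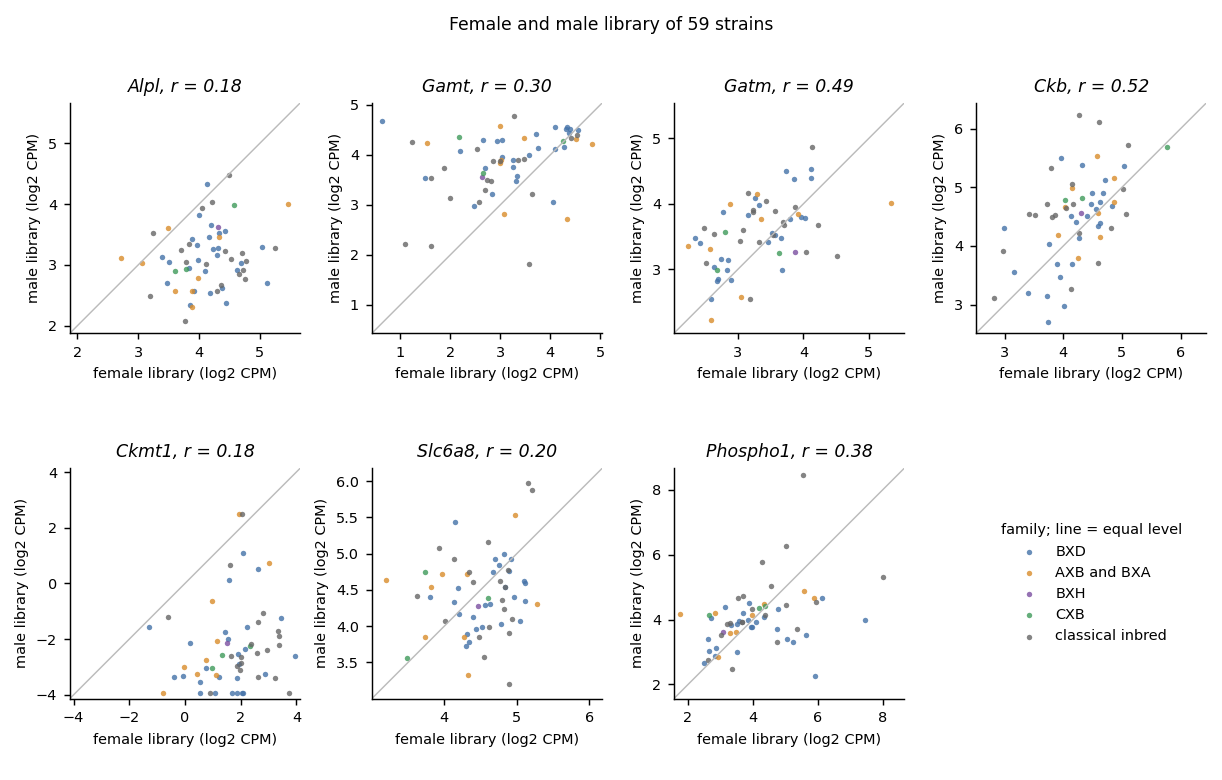
Female library (x axis) against male library (y axis) of 59 strains, in log2 CPM, for each gene, coloured by family, with a line at equal level. Points of *Ckb* (r = 0.52) and *Gatm* (0.49) rise together in both sexes, while most *Alpl* and *Ckmt1* points lie below it and most *Gamt* points above it.

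Co-expression of the members was examined over libraries within each labelled sex, to keep the difference between the labelled groups out of the correlations. The libraries against their labels were kept, so a sex difference could still enter. All 21 pairs were computed in each sex with 100000 resamples, each gene being also tested against every other gene, and a pair was called where the adjusted p was under 0.05 with each of its genes as reference. Of the 21 pairs, 4 were called in females and 7 in males. The share of all genes called differed with the reference: in females it was 11.4% for *Alpl*, 60.8% for *Gamt*, 0.0415% for *Gatm*, 52% for *Ckb*, 17.9% for *Ckmt1*, 43.7% for *Slc6a8* and 22.3% for *Phospho1*. In males it was 6.50% for *Alpl*, 66.1% for *Gamt*, 26.3% for *Gatm*, 41.7% for *Ckb*, 9.85% for *Ckmt1*, 51.2% for *Slc6a8* and 14.2% for *Phospho1*. The shares for *Gatm* include the row that repeats its values. With *Gamt* alone as reference most genes were thus called, and with *Alpl* or *Ckmt1* far fewer. These shares use the member alone as reference, which is a looser rule than that for a pair. The share of all genes called with each gene of the pair as reference was not computed. Strains of a recombinant family share their parents, which these permutations do not take into account.

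*Gamt* and *Ckb*, the methyltransferase and the cytosolic kinase, rose and fell together in both sexes. Pearson's r was 0.64 in females (permutation test, raw p = 1e-05, the smallest that the resamples can give, adjusted p = 7.87e-05; rho = 0.60) and 0.43 in males (adjusted p = 0.00103; rho = 0.36), and it was 0.57 and 0.38 without the 2 farthest libraries. After the adipocyte and epithelial scores were taken out, r was 0.26 in females and not called (permutation test, adjusted p = 0.35) and 0.30 in males and still called (adjusted p = 0.0422). The synthesis genes themselves were not called as a pair in the main setting: *Gamt* and *Gatm* had r = -0.08 in females (permutation test, adjusted p = 0.998) and 0.26 in males (adjusted p = 0.077). In males the pair was called on log2(TPM + 1) (r = 0.36, permutation test, adjusted p = 0.0101) and log2(TPM + 0.1) (r = 0.36, adjusted p = 0.00954). It was also called without the 2 libraries farthest for *Gamt* (r = 0.31, adjusted p = 0.0127), but not after both scores were taken out (r = 0.20, adjusted p = 0.221).

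In males *Slc6a8* was called with *Ckb* (r = 0.69, permutation test, adjusted p = 0.000179; rho = 0.66), *Gatm* (r = 0.48, adjusted p = 0.00271; rho = 0.46) and *Gamt* (r = 0.43, adjusted p = 0.000574; rho = 0.47). All 3 pairs were called after both scores were taken out, where r was 0.67, 0.47 and 0.37. They were also called without the 2 libraries farthest for the partner of *Slc6a8*, with that partner alone as reference. The libraries farthest for *Slc6a8* were not left out. In females the same pairs had r = 0.13, 0.04 and 0.24 and were not called, and whether the sexes differ in these correlations was not tested. On log2(TPM + 1), which is not scaled by TMM, r in females was 0.36 for *Ckb*, 0.36 for *Gatm* and 0.35 for *Gamt*, and all 3 pairs were called. *Gatm* and *Ckb* were called in males (r = 0.31, permutation test, adjusted p = 0.0375; rho = 0.31), but not without the 2 farthest libraries (r = 0.22).

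*Alpl* was called with 2 members in females and 1 in males, and whether the sexes differ in these correlations was not tested. In females it was called with *Ckmt1* (r = 0.55, permutation test, adjusted p = 0.000486; rho = 0.53) and *Slc6a8* (r = 0.54, adjusted p = 0.000793; rho = 0.52). The pair with *Slc6a8* was called after both scores were taken out (r = 0.46, permutation test, adjusted p = 0.0107), and the pair with *Ckmt1* was not (0.20, adjusted p = 0.311). Without the 2 farthest libraries r was 0.44 with *Ckmt1* and 0.59 with *Slc6a8*. In males it was called with *Phospho1* (r = 0.42, permutation test, adjusted p = 0.0124; rho = 0.29, adjusted p = 0.0981), where r was 0.33 without the 2 farthest libraries. The same pair had r = 0.21 in females, and *Alpl* and *Slc6a8* had r = 0.18 in males, not called except on log2(TPM + 0.1) (r = 0.31, permutation test, adjusted p = 0.0471). *Gamt* and *Ckmt1* ran against each other in both sexes (r = -0.35 and -0.33, permutation test, adjusted p = 0.0248 and 0.0475), and the residuals of both scores had r = -0.03 in either sex. In males this pair was not called without the 2 farthest libraries (r = -0.24) or without NZW/LacJ (r = -0.22). *Ckmt1* and *Slc6a8* in females were not called (r = 0.31), and were called without the 2 libraries against their label (r = 0.46, permutation test, adjusted p = 0.00181).

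**Figure D3:**
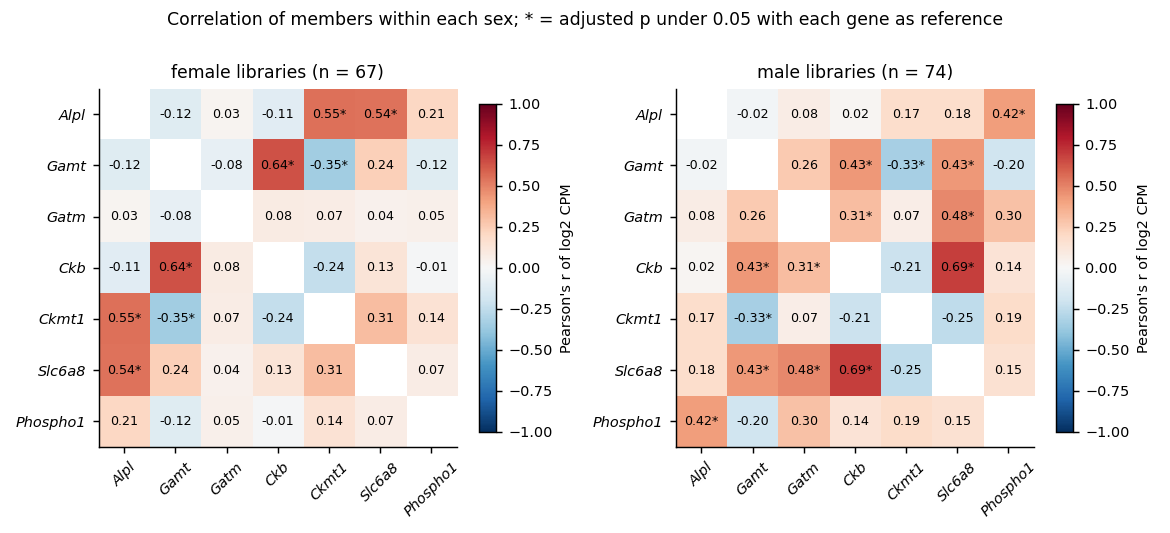
Pearson's r of log2 CPM between members over 67 female (left) and 74 male (right) libraries, with a star where the adjusted p was under 0.05 with each gene as reference. Starred cells join *Alpl* with *Ckmt1* and *Slc6a8* in females (0.55 and 0.54), and *Slc6a8* with *Ckb*, *Gatm* and *Gamt* in males (0.69, 0.48 and 0.43).

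To show what else each member followed, up to 3 genes with the highest smaller r of the 2 sexes are given as a description. *Gamt* was closest to *Cav1*, the caveolin of adipocyte caveolae (r = 0.92 in females and 0.91 in males), *Olfm1* (0.94 and 0.90) and *Lgals1* (0.92 and 0.90). *Phospho1* was closest to *Hadhb* (0.92 and 0.79) and *Hadha* (0.90 and 0.78), which encode the subunits of the mitochondrial trifunctional protein of fatty acid oxidation, and to the mitochondrial carrier gene *Slc25a34* (0.79 and 0.76). *Ckmt1* was closest to *Cldn7*, a tight junction gene that is part of the epithelial score (0.84 and 0.85), to the sodium-glucose cotransporter *Slc5a1* (0.89 and 0.82) and to occludin, *Ocln* (0.87 and 0.76). These 3 members thus had neighbours above 0.75 in both sexes.

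The other members had looser neighbours, apart from *Slc6a8*. *Slc6a8* was closest to *Fam129b* (r = 0.85 in females and 0.88 in males), *Rab11fip5* (0.75 and 0.82) and *Eps8* (0.74 and 0.81). *Ckb* was closest to *Rhoc* (0.69 and 0.70), *Wsb2* (0.68 and 0.77) and the lysosomal protease gene *Ctsb* (0.68 and 0.66), and *Alpl* to the chloride channel gene *Ano1* (0.73 and 0.65) and *Rassf9* (0.58 and 0.69). Beside the row that repeats its values, *Gatm* was closest to *Eif3j2* (0.51 and 0.54) and *Duox2* (0.49 and 0.49). *Gatm* in females was the member with fewest correlated genes, 7 of 16861, among them the row that repeats its values.

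The relation to cell content was measured as the slope of a gene's log2 CPM on the mean log2 CPM of a marker list within a sex, so that a slope of 1 means that the gene changed by as many log2 units as the markers. For the adipocyte score 65.7% of genes were called in females and 67.4% in males, and 4 and 2 of the 7 members were. *Gamt* had a slope of 1.10 in females (SE 0.11; edgeR, adjusted p = 1.3e-13) and 1.01 in males (SE 0.13; adjusted p = 7.7e-10), with r = 0.79 and 0.70 (rho = 0.71 and 0.62), and r = 0.78 and 0.60 without the 2 farthest libraries. *Ckb* rose with the score in females at a smaller slope (0.51, SE 0.083; edgeR, adjusted p = 2.29e-07; r = 0.63, rho = 0.55), as did *Slc6a8* (0.22, SE 0.078, adjusted p = 0.0107), for which r fell from 0.35 to 0.20 without the 2 farthest libraries and which was not called with library totals (0.15; edgeR, adjusted p = 0.167). In males the slopes were 0.43 for *Ckb* and 0.23 for *Slc6a8*, not called (edgeR, adjusted p = 0.074 and 0.214). Neither slope was called as different between the sexes (edgeR, adjusted p = 0.889 and 0.986). In males *Ckb* was called with limma-voom (0.49, adjusted p = 0.0289), and both genes on log2(TPM + 1) (limma, adjusted p = 0.00282 and 0.00183) and log2(TPM + 0.1). *Ckmt1* was called with a slope of -0.54 (SE 0.22; edgeR, adjusted p = 0.0251), which was -0.12 and not called with the epithelial score in the same fit (adjusted p = 0.465), nor called with limma-voom (adjusted p = 0.101) or the median over markers (adjusted p = 0.0503). *Alpl* and *Gatm* were not called in either sex, with slopes from -0.17 to 0.22, but with library totals *Gatm* was called in females (-0.32; edgeR, adjusted p = 0.0072) and *Alpl* in males (-0.44, adjusted p = 0.0245). *Gatm* was also called in females with at least 10 counts in every library (-0.21; edgeR, adjusted p = 0.0428), and *Alpl* on log2(TPM + 0.1) (0.25; limma, adjusted p = 0.0436).

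*Phospho1* was called against the adipocyte score in males with a slope of -0.94 (SE 0.25; edgeR, adjusted p = 0.000822), but the values did not bear out a fall. Pearson's r was 0.07 and rho 0.40, and without the SJL/J male the slope was 0.18 (SE 0.20; edgeR, adjusted p = 0.422). The call rested on that library, which had 233.8 TPM of *Phospho1* and ranked 73 of 74 in summed adipocyte markers.

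For the epithelial score 37% of genes were called in females and 15.4% in males, and 4 and 3 of the members were. *Ckmt1* had a slope of 0.74 in females (SE 0.075; edgeR, adjusted p = 6.67e-13) and 0.98 in males (SE 0.0995; adjusted p = 5.37e-13), with r = 0.83 and 0.73 (rho = 0.79 and 0.65), and r = 0.87 and 0.65 without the 2 farthest libraries. The slope was 0.98 and 1.05 without the libraries against their labels. *Alpl* rose in females (0.23, SE 0.040; edgeR, adjusted p = 5.76e-06; r = 0.57, rho = 0.54) and had a slope of 0.07 in males (SE 0.034, adjusted p = 0.18). Fitted with both scores at once, *Alpl* in females had 0.25 on the epithelial score and 0.16 on the adipocyte score, of which only the first was called.

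*Gamt* and *Ckb* fell with the epithelial score in the main setting. *Gamt* had slopes of -0.25 in females and -0.14 in males (edgeR, adjusted p = 0.00761 and 0.00822), and *Ckb* of -0.14 and -0.13 (adjusted p = 0.00967 and 0.0469). In females *Gamt* was not called with both scores in 1 fit (-0.10; edgeR, adjusted p = 0.13). On the TPM scales neither gene was called in females (limma, adjusted p = 0.152 and 0.189 for *Gamt*, 0.366 and 0.343 for *Ckb*). In males *Ckb* was not called with both scores in 1 fit (edgeR, adjusted p = 0.0774), with limma-voom (adjusted p = 0.148) or on the TPM scales (limma, adjusted p = 0.151 and 0.166). With the median over markers neither gene was called in males. Without the libraries against their labels, *Ckb* was called in neither sex (edgeR, adjusted p = 0.0667 and 0.111) and *Gamt* in females alone (adjusted p = 0.00475, and 0.0763 in males), while *Slc6a8* was called in females (0.19, adjusted p = 0.000994, against 0.05 with them). *Gatm* and *Phospho1* had slopes between -0.03 and 0.07 in both sexes.

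**Figure D4:**
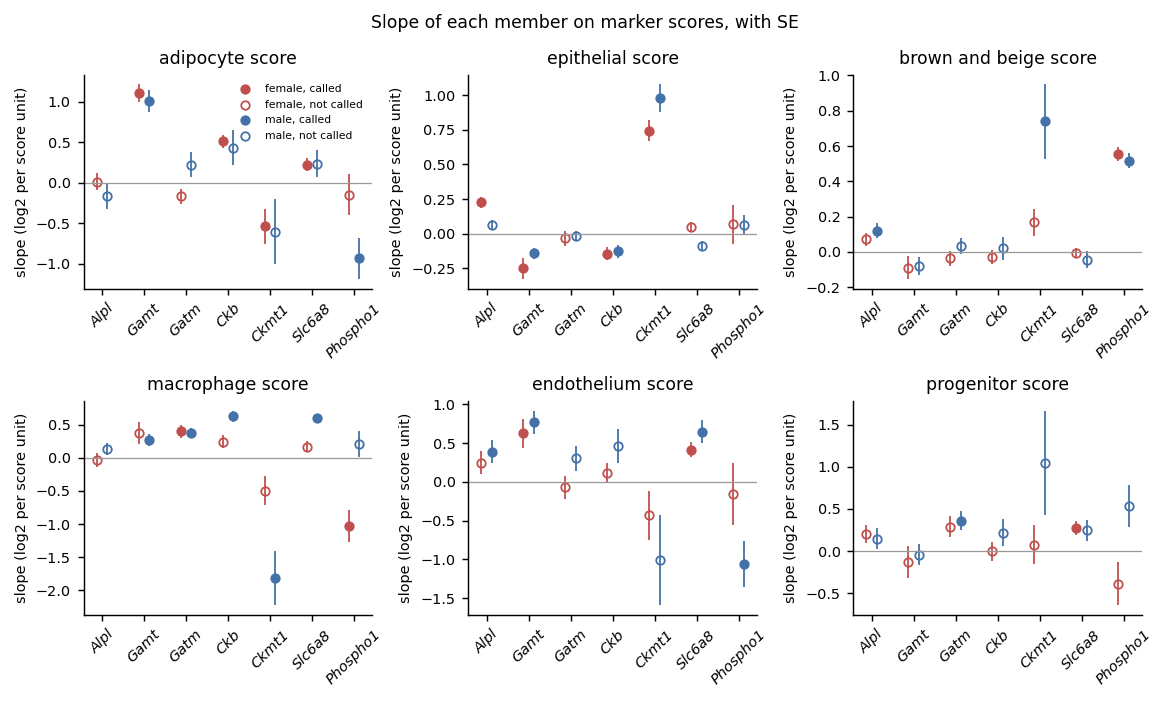
Slope of each gene on 6 marker scores with its standard error, in log2 CPM per unit of score (vertical axes differ between panels), females in red and males in blue, with filled points where the adjusted p was under 0.05. *Gamt* has slopes of 1.10 and 1.01 on the adipocyte score, *Ckmt1* of 0.74 and 0.98 on the epithelial score and *Phospho1* of 0.55 and 0.52 on the brown and beige score.

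*Phospho1* followed the markers of brown and beige fat. None of these 6 markers was called for sex (edgeR, 0 of 6, with 1 at an unadjusted p under 0.05, and 1 with limma-voom). On their score 23.2% of genes were called in females and 11.4% in males, and 1 and 3 of the members were. *Phospho1* had a slope of 0.55 in females (SE 0.037; edgeR, adjusted p = 4.85e-20; r = 0.85, rho = 0.78) and 0.52 in males (SE 0.042; adjusted p = 3.03e-16; r = 0.67, rho = 0.56). Without the MA/MyJ female it was 0.51 (edgeR, adjusted p = 3e-17) and without the SJL/J male 0.35 (adjusted p = 5.63e-08). Without the 2 farthest libraries r was 0.81 and 0.54. Fitted together with the adipocyte and epithelial scores the slope was 0.58 and 0.53. *Alpl* (0.12; edgeR, adjusted p = 0.04) and *Ckmt1* (0.74, adjusted p = 0.0109) were called in males, and neither was without the NZW/LacJ library, which had rank 4 of 74 in summed brown and beige markers (829.4 TPM).

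*Slc6a8* followed the macrophage markers (*Adgre1*, *Cd68*, *Csf1r*, *Mrc1*) in males. On their score 24.8% of genes were called in females and 47.9% in males, and 2 and 5 of the members were. In males *Slc6a8* had a slope of 0.60 (SE 0.048; edgeR, adjusted p = 1.96e-17; r = 0.81, rho = 0.79) and *Ckb* of 0.63 (SE 0.083; adjusted p = 3.09e-09; r = 0.65, rho = 0.62). Without CE/J and KK/HlJ the slopes were 0.54 and 0.56, and both were called. Without the 2 libraries farthest from the median score r was 0.82 and 0.62. *Gatm* (0.37; edgeR, adjusted p = 5.93e-05) and *Gamt* (0.26, adjusted p = 0.0149) also rose, and *Ckmt1* had a slope of -1.81 (adjusted p = 0.000211), which was -0.58 and not called with the adipocyte and epithelial scores in the same fit (adjusted p = 0.1).

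In females *Gatm* rose with the macrophage score (0.40; edgeR, adjusted p = 0.00186) and *Phospho1* fell (-1.03, adjusted p = 0.000836; r = -0.40, rho = -0.36). Without the AXB12/PgnJ female *Gatm* had a slope of 0.28 (edgeR, adjusted p = 0.0335), and without the MA/MyJ female *Phospho1* had -0.86 (adjusted p = 0.000918). *Slc6a8* had 0.17 and was not called (edgeR, adjusted p = 0.119), but was called without AXB12/PgnJ (0.22, adjusted p = 0.0195), with library totals (0.22, adjusted p = 0.0227), with the adipocyte and epithelial scores in the same fit (0.23, adjusted p = 0.0153) and on log2(TPM + 1) (0.38; limma, adjusted p = 3.29e-06). The count of members called in females was 4, 4 and 6 under the last 3 of these, where 35.2%, 30.5% and 69% of all genes were called.

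Slopes of the sexes were compared by an interaction term. For the macrophage score 0.937% of genes differed between the sexes, and 2 members did. The slope of *Slc6a8* was lower in females by -0.43 (SE 0.091; edgeR, adjusted p = 0.00249), and by -0.37 without the AXB12/PgnJ library (adjusted p = 0.00996). That of *Phospho1* was lower by -1.24 (SE 0.31; edgeR, adjusted p = 0.018), and was not called without MA/MyJ and SJL/J (-0.75, adjusted p = 0.0763). For the epithelial score 16.7% of genes differed, among them *Alpl* (0.16 higher in females, SE 0.054; edgeR, adjusted p = 0.0242) and *Slc6a8* (0.14 higher, SE 0.048, adjusted p = 0.0349), for which the difference was 0.29 without the libraries against their labels. Epithelial markers span other ranges in the sexes, with scores from -2.92 to 7.41 in females and from -3.48 to 5.11 in males.

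**Figure D5:**
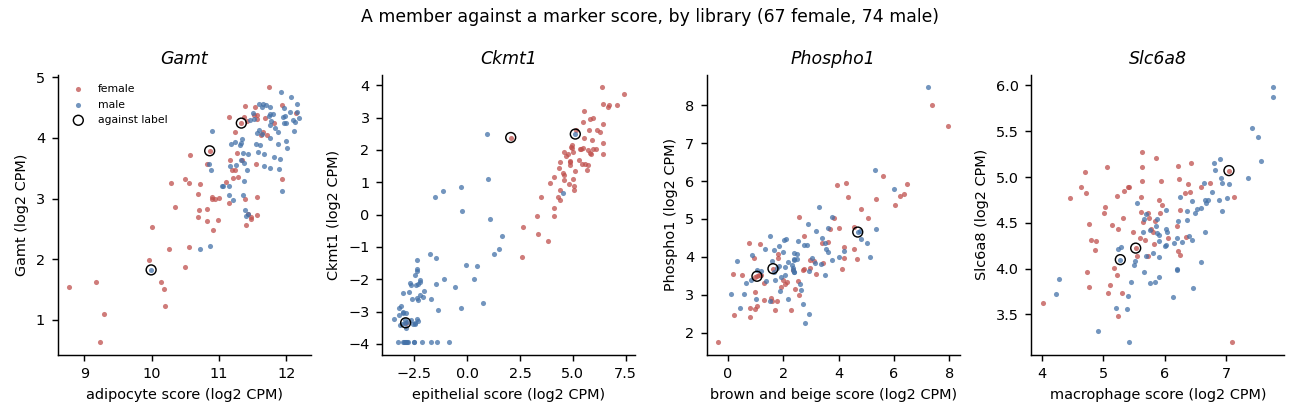
Relations by library, in log2 CPM: *Gamt* against the adipocyte score, *Ckmt1* against the epithelial score, *Phospho1* against the brown and beige score and *Slc6a8* against the macrophage score, females in red, males in blue, and circles around the 3 libraries against their labels. In the *Ckmt1* panel the library labelled female of BXD69/RwwJ sits among the males and that labelled male of NZW/LacJ among the females. The remaining circle, BXD34/TyJ labelled female, lies at a score of 2.06 and a *Ckmt1* level of 2.38. The median scores were 5.05 in females and -2.365 in males.

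The remaining scores were those of endothelium, progenitors and skeletal muscle. Endothelial markers (*Pecam1*, *Cdh5*, *Kdr*, *Emcn*) called 63.5% and 59.7% of genes and 2 and 4 of the members. *Gamt* (0.63 and 0.77) and *Slc6a8* (0.42 and 0.65) rose with them in both sexes and *Alpl* in males (0.39), and *Phospho1* in males had a slope of -1.06 with r = -0.03. That slope was not called with the adipocyte and epithelial scores in the same fit (-0.64; edgeR, adjusted p = 0.133). Nor was it on log2(TPM + 1) (-0.20; limma, adjusted p = 0.361). The SJL/J male, highest in *Phospho1*, had rank 74 in summed endothelial markers, and its part in the slope was not tested. With the adipocyte and epithelial scores in the same fit, *Gamt* in females had -0.0049 on the endothelial score. Without the libraries against their labels its slope was 1.36, and *Ckb* in females was called as well (0.55; edgeR, adjusted p = 0.00252).

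Progenitor markers (*Pdgfra*, *Pi16*, *Dpp4*, *Dcn*) called 13.5% and 11.5% of genes, and of the members *Slc6a8* in females (0.28; edgeR, adjusted p = 0.0212) and *Gatm* in males (0.36, adjusted p = 0.0242). Skeletal muscle markers (*Acta1*, *Myh4*, *Myh1*, *Tnnt3*, *Actn3*, *Mylpf*, *Myl1*) called 1.10% of genes in females and 0.907% in males and no member (edgeR, 0 of 7 in each sex, with 0 in females and 2 in males at an unadjusted p under 0.05, and 0 with limma-voom). By rank, however, some members were called in females. Spearman's rho was 0.47 for *Gamt*, -0.40 for *Ckmt1* and 0.31 for *Ckb* (permutation test, adjusted p = 0.00186, 0.00989 and 0.0403). Pearson's r of these genes was not called, and no member was called by rho in males.

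Further genes of the pathway were read from lists. Of the other creatine kinases and transporters, *Ckmt2* was listed at 0 in most libraries and was not tested. The muscle kinase *Ckm* had a median of 0.282 TPM in females and 0.27 TPM in males, with single libraries at up to 2041 and 451.7 TPM. *Slc16a12*, a creatine transporter of the monocarboxylate family, had 0.677, 4.08 and 22.1 TPM (lowest, median, highest) in females and 0.768, 12.1 and 36.3 TPM in males. The male was higher (log2FC -1.19, SE 0.17; edgeR, adjusted p = 1.13e-08), and the gene rose with the adipocyte score in both sexes (1.10 and 1.31; adjusted p = 3.29e-09 and 5.14e-05), as *Gamt* did.

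A list of 11 genes covers enzymes that make or use up arginine, glycine and methyl groups, and all were tested. Of these, 4 were higher in females and 3 in males, where 58.1% of all genes were called. Their median log2FC was 0.20, against 0.01 over all genes. *Arg2*, the mitochondrial arginase, had 9.08 TPM at the female and 0.259 TPM at the male median (log2FC 4.95, SE 0.31), and *Arg1* had 5.12 and 0.955 TPM (2.53, SE 0.32). *Shmt1*, which moves the carbon between serine and glycine, followed (1.09, SE 0.10). *Arg2* and *Shmt1* rose with the epithelial score in both sexes (0.82 and 0.54, 0.34 and 0.15). *Oat*, the ornithine aminotransferase, was higher in males (-0.40, SE 0.048). In the strain test 10 of the 11 were called, where 71.2% of all genes were.

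Of 8 phosphatase and pyrophosphate genes, 5 were tested, 1 was higher in females and 3 in males (median log2FC -0.10, with 58.1% of all genes called). *Enpp1*, which makes the pyrophosphate that the phosphatase of *Alpl* cleaves, was the one higher in females (1.30, SE 0.15; edgeR, adjusted p = 1.34e-10), with 4.06 and 1.71 TPM at the medians. It fell with the adipocyte score in both sexes (-1.06 and -1.89; edgeR, adjusted p = 7.99e-07 and 1.68e-17), whereas *Alpl* was not called on that score. The phosphate carriers *Slc20a2* (-0.40) and *Slc20a1* (-0.20) and the paralog *Phospho2* (-0.10) were higher in males. The intestinal and germ cell alkaline phosphatases *Alpi*, *Akp3* and *Alppl2* had medians of 0 to 0.0282 TPM and were not tested.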

How the data were processed

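RNA-seq of iWAT was measured in 67 libraries labelled female and 74 labelled male from HMDP mice. The authors made 100 bp paired-end, stranded libraries and quantified them with kallisto (0.46.1 in the submitters' processing notes) using transcripts of Ensembl release 97 (GRCm38), and tximport brought transcripts to the gene level. Estimated counts were deposited as raw values, with no scaling between libraries, and 30.3% of them carry decimals. The deposited TPM values are corrected for transcript length and sum to 1000000 per library, so they carry no depth. Reads of near-identical copies can be split by kallisto. Symbols came from GENCODE M21 (Ensembl release 96), which named 35935 of 36558 genes. No sequencing batch is given in the labels.

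Counts were rounded, filtered with filterByExpr, scaled by TMM and tested by the quasi-likelihood method of edgeR (4.0.16, in R 4.3.3), with Benjamini-Hochberg adjustment over all genes tested and a threshold of 0.05. Sex and strain were tested in ~ Strain + Sex over 59 strains, where the pair is made by the strain named in the labels. Families and scores were tested within a sex. A score is the mean log2 CPM (prior count 2) over a marker list. Correlations of log2 CPM used two-sided permutation tests with 100000 resamples. The alternatives were DESeq2 1.42.0, limma 3.58.1 (voom, log2(TPM + 1), log2(TPM + 0.1)), other scalings and filters, score covariates and left-out libraries. Scripts used Python 3.11.15 with numpy 2.4.6, scipy 1.17.1 and pandas 2.3.3.

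Scripts were tested on simulated data. The members and lists were chosen with earlier results of these data known. Named are the 7 members, of each further list up to 4 called genes with the largest log2FC or slope, up to 3 genes most like each member, the 3 highest and lowest strains, the family parents and libraries that stood apart. *Ckmt2*, *Alpi*, *Akp3* and *Alppl2* are named from the lists as untested. P-values measure the spread between these libraries, and intervals and floors cover counting error only. The microarrays, respirometry, genotypes and human data of the study are not analysed here. Some genes, and the marker lists that hold them, are not reported here.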

Additional observations from a re-analysis of the deposited data

Results flagged for a closer look

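The slope of *Slc6a8* on the macrophage score differed between the sexes by -0.43 (female minus male), with 0.17 in females and 0.60 in males, and that of *Phospho1* by -1.24, with -1.03 in females and 0.21 in males. On the epithelial score *Alpl* differed by 0.16 and *Slc6a8* by 0.14, each with the higher slope in females. These 4 were called by the interaction term over all libraries, and each was refitted without other libraries. That of *Phospho1* was not called without MA/MyJ and SJL/J (-0.75). On the macrophage score *Slc6a8* was called without AXB12/PgnJ (-0.37), and on the epithelial score *Alpl* was called without AXB13/PgnJ (0.15) and *Slc6a8* without the libraries against their labels (0.29).

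Among the 9 female AXB and BXA libraries, single libraries lay far from the others in TPM. The gap to the nearest library took 0.85 of the whole range for *Gatm* in AXB12/PgnJ, 0.68 for *Ckmt1* in AXB13/PgnJ and 0.57 for *Alpl* in AXB13/PgnJ. Only this family and sex had 4 to 10 libraries, so that 7 values were examined, and chance alone passes the limit in about 1 of 20 groups. The AXB12/PgnJ female had the lowest summed brown and beige markers of the 67 (34.3 TPM) and the highest macrophage markers (399.1 TPM), and their part in the *Gatm* value was not tested.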

How the results depend on the processing

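Of 1764 recomputed values, 1566 kept their direction and their side of the threshold or stayed within 1.5 times the count. The pairing is by strain, and with no replicate block 4 of 7 members were called for sex, over matched strains (48.9% of all genes called) or all libraries (51.5%), *Gatm* being lost. No paired analysis was possible for families and scores because they lie within a sex. For sex, 3 members were called on log2(TPM + 1), on log2(TPM + 0.1) and with the adipocyte score, where *Ckb* had 0.0392. With the epithelial score 0 were called (edgeR, 0 also at an unadjusted p under 0.05, 0.0477% of all genes called), with *Gamt* at 0.0507, *Gatm* 0.14, *Ckb* 0.53 and *Ckmt1* -0.64. With both scores 0 were called (1 at an unadjusted p under 0.05, 0.167% of all genes), with *Gamt* at 0.0436, *Gatm* 0.14, *Ckb* 0.51 and *Ckmt1* -0.74. Families in males called 0 members with limma-voom and on both TPM scales, and 2 with both scores as covariates. The adipocyte slope of *Phospho1* in males was 0.19 with limma-voom and 0.18 without SJL/J. The epithelial score in males called 1 member with at least 10 counts in every library, without the library against its label and with the median over markers. The brown and beige score called 3 members in females on both TPM scales, and in males 1 with limma-voom, without the library against its label and with the 3 scores in 1 fit. On log2(TPM + 1), slopes in females turned to 0.28 (*Alpl*, macrophage), 0.25 (*Ckb*, progenitor) and 0.37 (*Gatm*, endothelium), and that of *Gamt* on the endothelial score to -0.0049 with the adipocyte and epithelial scores. Co-expression in females called 10 pairs on log2(TPM + 1), 9 on log2(TPM + 0.1) and 2 as residuals of both scores. Fits that left out single libraries, and scores other than those of adipocytes, epithelium, brown fat and muscle, were added after the data were seen. The causes of these shifts were not tested. Counts of 3 or fewer, where depth is the limit, were found for *Ckmt1* alone, in 41 male libraries and 1 female library.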
